A study of Mus musculus with 130 samples.

Results

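The 40 strains described here are the extremes of a panel of inbred mice ranked by liver Scd1, the stearoyl-CoA desaturase that puts the first double bond into newly made saturated fatty acids. All were male mice fed 2% carbonyl iron. The 113 strains ranked were ordered by the authors' deposited TPM (transcript abundance per length, scaled to a fixed total) of Scd1. The 20 highest formed the high group, the 20 lowest the low group, and the remaining 73 strains are called the middle strains. Scd1 therefore chose the groups, and its values are given as a description with no test. The whole series holds 130 liver libraries from male mice.

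The series followed liver RNA in dietary iron overload across strains, with mice that received chow for 4 weeks and the iron diet for 6 weeks. A separate set of 15 male C57BL/6J mice, 3 per diet, received chow, 50 ppm iron, 500 ppm iron, 2% iron, or 2% iron with cellulose as the fiber source. The panel holds recombinant inbred families, whose strains share their 2 parental genomes, beside classical inbred strains. BXD strains descend from C57BL/6J and DBA/2J, and AXB and BXA strains from A/J and C57BL/6J. The high group held 13 BXD strains, 4 AXB or BXA strains and 3 other inbred strains. The low group held 7 BXD, 2 AXB or BXA, 1 BXH and 10 other inbred strains. Family and Scd1 group are thus partly confounded, and values within BXD strains and within the other strains are given beside the main results. Each of the 113 ranked strains was 1 animal, so that p-values measure the spread between strains, and strain cannot be separated from the individual mouse or its day of collection. The labels give neither age, feeding state nor time of day at collection. In whole liver, fewer cells of a type and less RNA per cell cannot be told apart.

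De novo lipogenesis turns citrate exported from mitochondria into acetyl-CoA, malonyl-CoA and then palmitate, which elongases lengthen and desaturases such as Scd1 make monounsaturated for storage in triglyceride. In liver, insulin acts on this pathway largely through the transcription factor SREBP-1c, carbohydrate acts through ChREBP, and the sterol receptor LXR acts on both SREBP-1c and Scd1. The related factor SREBP-2 governs cholesterol synthesis, which draws on the same acetyl-CoA.

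Scd1 (ENSMUSG00000037071) lies on chromosome 19 at 44394455 to 44407879 on the minus strand of GRCm38. Its TPM had a minimum of 3001, a median of 3682 and a maximum of 8025 in the high group. In the low group the same values were 12.5, 532 and 907. The medians differed 6.92-fold. TPM values share a fixed total. Of this, Klf10, a zinc finger transcription factor gene, was assigned a median of 240452 TPM in the high group and 292165 TPM in the low group. As CPM of the library total, its medians were far lower, at 27370 in the high group and 37191 in the low group. Whether the TPM of Klf10 is an artefact of quantification was not tested, nor was its part in the TPM of Scd1. Ranking by CPM placed 17 of the 20 high and all 20 low strains in the same groups. At the edges of the groups, BXD71/RwwJ was the last strain inside the high group at 3001 TPM and BXD70/RwwJ the first outside at 2983 TPM. BXD60/RwwJ was the first strain inside the low group at 907 TPM, and A/J stood just outside at 1106 TPM. The upper boundary thus cuts a continuous series of values.

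A pair of strains stood apart at the ends. AXB19/PgnJ was highest at 8025 TPM, 1.49 times the next strain, BXD5/TyJ at 5385 TPM. The strains AXB19a/PgnJ and AXB19b/PgnJ, which share its name, had 2438 and 1864 TPM and ranked 37 and 60, among the middle strains. BXD48/RwwJ was lowest at 12.5 TPM, and the next strain, MRL/MpJ at 122 TPM, was 9.74 times higher. AKR/J had 138 TPM and BALB/cJ 168 TPM. The related BXD48a/RwwJ had 635 TPM and BALB/cByJ 631 TPM, so that substrains of the same name differed in Scd1 within the low group. Of the recombinant inbred parents, C57BL/6J ranked 56 and DBA/2J ranked 29 among the 113 strains. BXD strains covered almost the whole range, from 12.5 to 5385 TPM.

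**Figure D1:**
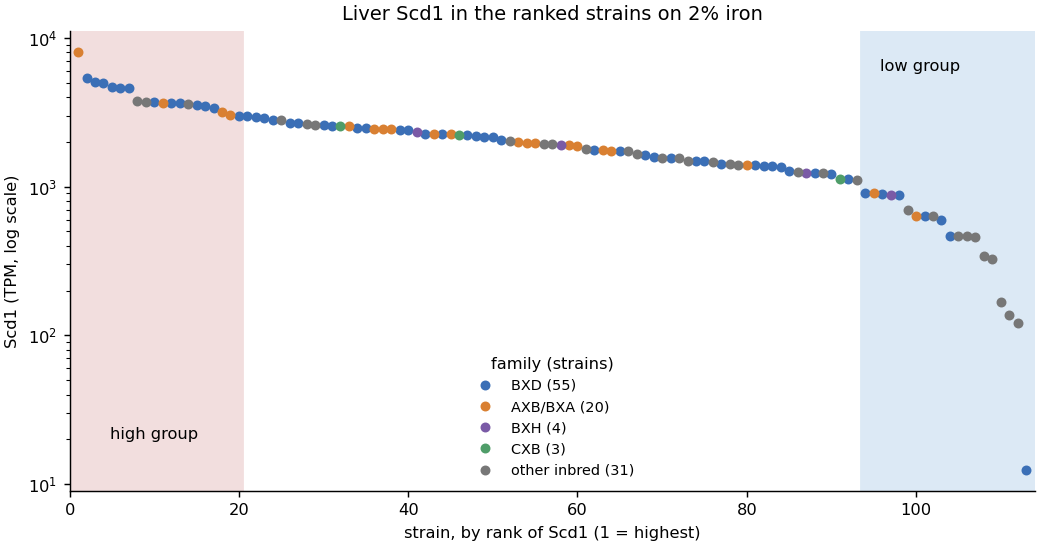
Scd1 TPM (log axis) of the 113 ranked strains against rank, each point 1 strain coloured by family. The shaded high group lies at 3001 TPM and above, the shaded low group at 907 TPM and below, and BXD48/RwwJ stands alone at 12.5 TPM.

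All other genes were tested from the deposited expected counts with edgeR's quasi-likelihood test and are given in CPM (counts per 1e+06 counts of the library, scaled by trimmed mean of M-values), as log2 differences of the high minus the low group with the standard error (SE), and with Benjamini-Hochberg adjusted p-values over all genes. A gene is called where the adjusted p lay under 0.05. Of 13221 genes tested, 3419 were called, which is 25.9%: 1464 (11.1%) higher and 1955 (14.8%) lower in the high group. Most differences were small, and 279 called genes differed by more than 2-fold. Limma on log2(TPM + 1) called 2507 genes and moved the split from 42.8% to 84.4% higher. The median log2 difference over all genes was 0.06 on that scale against -0.03 in the count fit. Libraries of both groups were of like depth, with totals of 10949500 to 14293300 counts in the high group and 10200700 to 15419200 in the low group.

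The number of calls varied with the families included. With family as a covariate 2020 genes (15.3%) were called. Within the 13 high and 7 low BXD strains 926 genes (6.85%) were called, and among the 7 high and 13 low other strains 162 genes (1.2%) were called. No gene passed the test of a different effect in BXD and other strains with edgeR. An unadjusted p under 0.05 was seen in 451 of the 13221 genes tested. That is less than the share of 0.05 that falls there where no gene differs. The smaller sets hold fewer strains, which by itself lowers the number of calls.

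The desaturation and chain-building enzymes of lipogenesis were higher in high Scd1 strains. Of 30 lipogenesis genes, all tested, 23 were called higher and 0 lower, and the median log2 difference was 0.83, against -0.03 for all genes. With family as a covariate 21 were called higher, against 7.39% of all genes. In BXD strains 17 were, against 4.08%, and in the other strains 12, against 0.823%. Lists and the choice of Scd1 were made with earlier results of these data known.

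Fasn, the fatty acid synthase that builds palmitate, differed most clearly. In the high group its level had a minimum of 607, a median of 1349 and a maximum of 3458 CPM. In the low group these values were 124, 261 and 481 CPM. The groups did not overlap: the lowest high strain, BXA1/PgnJ, lay above the highest low strain, BXD48a/RwwJ. The log2 difference was 2.52 (SE 0.21, adjusted p = 4.16e-11), with 2.41 in BXD strains and 2.50 in the others in a joint fit of both. Non-overlapping groups occurred in 4 of the 13221 genes (0.0303%), and these were Fasn, Acaca, Elovl6 and Tm7sf2.

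Acaca encodes acetyl-CoA carboxylase 1, which makes malonyl-CoA. It ranged from 258 to 646 CPM with a median of 357 in the high group and from 104.8 to 214 CPM with a median of 146 in the low group. Its log2 difference was 1.33 (SE 0.11, adjusted p = 7.83e-11). Elovl6, the elongase that turns palmitate into stearate, the main substrate of Scd1, ranged from 103.7 to 395 CPM with a median of 202.1 against 14.4 to 88.4 CPM with a median of 44.2. This gene differed by 2.26 (SE 0.20, adjusted p = 2.45e-10) on the log2 scale. For both genes every strain of the high group lay above every strain of the low group.

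Most enzymes that supply cytosolic acetyl-CoA and NADPH were called higher, and their groups overlapped. Acly, which cleaves citrate, had medians of 326.98 and 128 CPM (log2 1.54). Its lowest high strain had 184.6 CPM and its highest low strain 188.3 CPM. Acss2, which makes acetyl-CoA from acetate, had medians of 268 and 63.3 CPM (log2 2.29), and Me1, malic enzyme, 316.04 and 140.8 CPM (log2 1.35). Slc25a1, the mitochondrial citrate carrier, was higher by 0.70. Pgd, of the pentose phosphate pathway, was higher by 0.44 with a wide overlap, at 28.5 to 82.4 CPM in the high group and 22.4 to 97 CPM in the low group. G6pdx, the entry enzyme of that pathway, had 12.9 ± 3.5 CPM (SD, n = 20) in the high group and 12.7 ± 4.13 CPM in the low group and was not called.

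Further desaturases and elongases were also higher. Elovl5 had medians of 809 and 286 CPM (log2 1.59, SE 0.19), Fads2, the delta-6 desaturase, 545 and 172 CPM (log2 1.28, SE 0.23), and Fads1, the delta-5 desaturase, 742 and 429 CPM (log2 0.85, SE 0.15). Each of the 3 was called, with adjusted p of 2.34e-07, 0.000194 and 9.63e-05. Acacb, which makes the malonyl-CoA that restrains mitochondrial fatty acid uptake, was higher by 1.39. Thrsp and Mid1ip1, paired regulators of acetyl-CoA carboxylase, were higher by 1.498 and 1.09. Of the acyltransferases toward triglyceride, Gpam was higher by 0.81, while Agpat2 (0.02, adjusted p = 0.902) and Dgat2 (0.18, adjusted p = 0.269) were not called. Dgat2 passed without BALB/cByJ, at 0.27.

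The glycolytic steps that feed the pathway showed smaller differences. Pklr, liver pyruvate kinase, was higher by 1.12 and Khk, ketohexokinase, by 0.74. Tkfc had a difference of 0.32 and was not called (adjusted p = 0.082), and it passed without BUB/BnJ or without MRL/MpJ, at 0.36 in both cases.

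Among the transcription factors of the pathway 3 were called higher. Srebf1, which encodes SREBP-1, had a minimum of 150, a median of 310 and a maximum of 495.1 CPM in the high group and 79.1, 158 and 367 CPM in the low group (log2 0.82, SE 0.17, adjusted p = 0.000756). Mlxipl, which encodes ChREBP, had medians of 208 and 141.4 CPM (log2 0.55, SE 0.10, adjusted p = 0.00021). Nr1h3, which encodes LXR alpha, differed by 0.31 (adjusted p = 0.023). Groups overlapped for all 3 genes. Pnpla3, a lipid droplet acyl hydrolase gene driven by SREBP-1c, had the largest log2 difference of the list at 2.57 (SE 0.50), from low levels: medians were 2.08 and 0.501 CPM, and 5 high strains lay under 1 CPM. Insig2, a retention protein of SREBP, differed by -0.62 (adjusted p = 0.0638) and Lpin1, a phosphatidate phosphatase, by -0.91 (adjusted p = 0.0526). Neither was called with all 40 strains, while leaving out any 1 of 9 strains made Insig2, and any 1 of 15 strains Lpin1, pass the threshold.

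**Figure D2:**
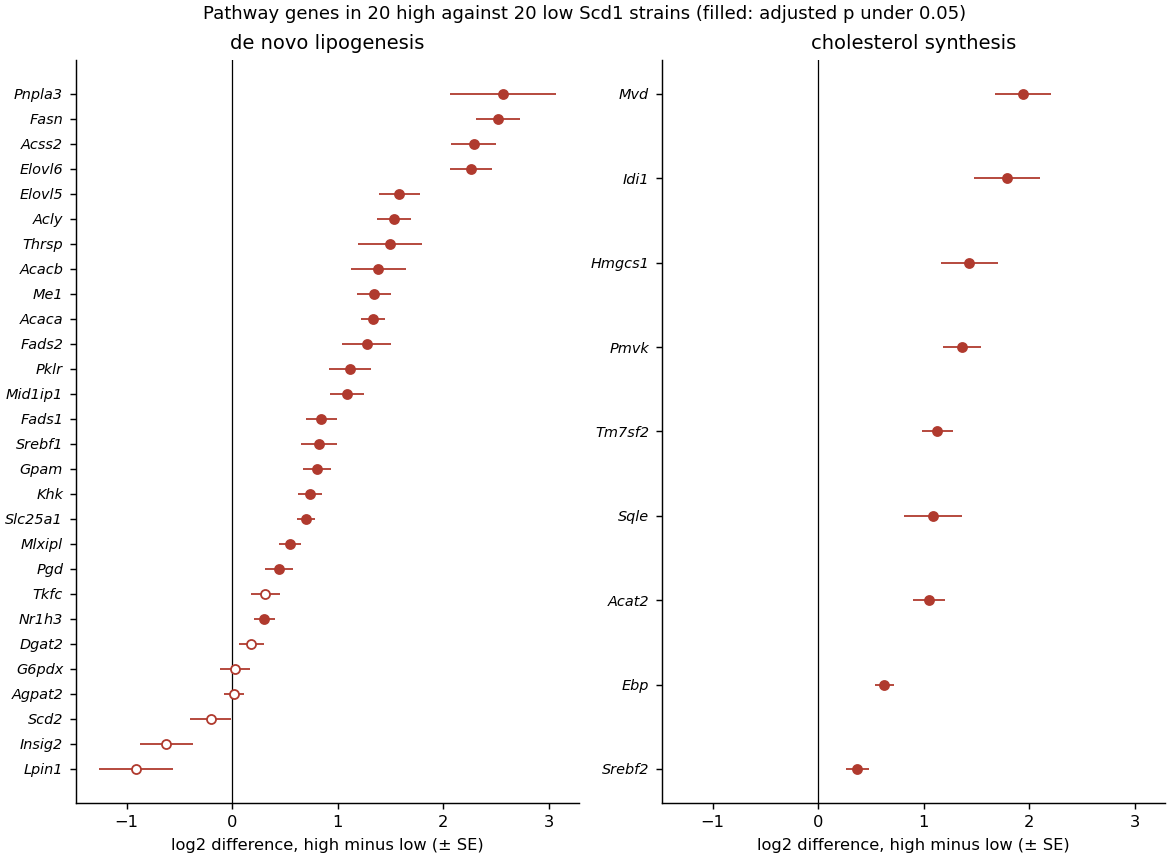
Log2 difference of the high minus the low group with its standard error for 28 of the 30 lipogenesis genes (left) and 9 of the 25 cholesterol synthesis genes (right), those named in the text, each point 1 gene, filled where called. In lipogenesis 21 of the plotted points are filled and lie right of 0, and in cholesterol synthesis all 9 do.

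Results for the close relatives of Scd1 were mixed. Scd2, Scd3 and Scd4 lie beside Scd1 on chromosome 19 and have similar sequences, so that reads shared between them could be assigned to the wrong member. Scd3 ranged from 1.14 to 3.14 CPM in the high group and from 0.0701 to 1.75 CPM in the low group (log2 1.23, SE 0.22, adjusted p = 0.000112). Scd4 ranged from 0.63 to 2.45 against 0.149 to 0.877 CPM (log2 1.51, SE 0.19, adjusted p = 4.93e-07). Scd2, the main desaturase of brain, had medians of 11.9 and 14.5 CPM and was not called (log2 -0.20, adjusted p = 0.469). The sign for Scd2 was opposite in BXD strains fitted alone, at 0.10.

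The 4 strains with the lowest Scd1 had Fasn, Acaca and Elovl6 within the range of the other low strains. BXD48/RwwJ, MRL/MpJ, AKR/J and BALB/cJ had 12.5 to 168 TPM of Scd1, below the other 16 low strains. Their Fasn lay between 126 and 290 CPM, within the 124 to 481 CPM of the other 16, with a lower median (212 against 286 CPM). Acaca lay between 125 and 206 CPM against 104.8 to 214 CPM, and Elovl6 between 20.2 and 75.8 CPM against 14.4 to 88.4 CPM. Srebf1 ranged from 79.1 to 160 CPM with a median of 126 CPM in these 4 strains and from 93.2 to 367 CPM with a median of 168 CPM in the other 16, and BXD48/RwwJ had the lowest value of the low group. BXD48/RwwJ, with the lowest Scd1 of the panel, had 222 CPM of Fasn, 125 CPM of Acaca and 47 CPM of Elovl6, each within the range of the other 16. These 4 strains were singled out after their values were seen, and no test is attached.

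Promoter sequence was examined because these genes moved together. SREBP factors bind sterol response elements, commonly with NF-Y at CCAAT boxes nearby. Windows from 250 bases before to 50 bases after the start came from RefSeq (GRCm38.p6), and a gene counted once if any of its windows held the letters on either strand. CCAAT occurred in 16 of the 25 lipogenesis genes with a window (64%) and in 16 of 17 cholesterol synthesis genes (94.1%), against 42.9% of the genes tested and 41.1% of all genes with a window. The mean number of windows per gene was 1.4, 1.18, 1.28 and 1.22 in the same order. The element TCACNCCAC occurred in 1 gene of each list (4% and 5.88%), against 1.43% of the genes tested. The E-box CACGTG, the core of ChREBP sites, occurred in 16% and 23.5%, against 11.3%. These are matches of letters, not sites of binding. Of the 250 bases before the start, Fasn (chr11:120824548-120824797, minus strand) and Hmgcs1 (chr13:119690101-119690350, plus strand) are shown as the leading gene of the first list and the member of the second with a TCACNCCAC match. Capitals mark CCAAT on either strand and, in Hmgcs1, also TCACCCCAC.
Fasn: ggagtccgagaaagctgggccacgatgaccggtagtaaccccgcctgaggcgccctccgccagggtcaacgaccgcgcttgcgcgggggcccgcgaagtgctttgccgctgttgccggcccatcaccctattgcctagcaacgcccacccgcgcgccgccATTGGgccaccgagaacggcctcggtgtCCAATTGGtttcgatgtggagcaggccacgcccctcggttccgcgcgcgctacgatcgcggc
Hmgcs1: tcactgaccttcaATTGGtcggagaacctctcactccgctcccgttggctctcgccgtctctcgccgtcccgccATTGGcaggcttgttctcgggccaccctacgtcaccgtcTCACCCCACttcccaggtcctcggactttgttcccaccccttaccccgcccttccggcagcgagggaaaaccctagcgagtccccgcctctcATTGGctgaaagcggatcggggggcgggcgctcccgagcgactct
Each stretch holds CCAAT 3 times, an overlapping pair in Fasn included, and the longer element in Hmgcs1 begins 137 bases before the start.

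Cholesterol synthesis genes were higher in the high group throughout. All 25 genes of the list were called higher, with a median log2 difference of 1.13. With family as a covariate 24 were called higher (7.39% of all genes were), in BXD strains 18 (4.08%) and in the other strains 7 (0.823%), where fewer strains were tested. Hmgcs1, the first committed synthase, had 401 ± 243 CPM (SD, n = 20) in the high group and 149 ± 92.8 CPM in the low group (log2 1.43, SE 0.27, adjusted p = 0.000255). The smallest difference of the list was that of Srebf2, which encodes SREBP-2, at 0.37 (adjusted p = 0.0124).

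Within the pathway, 1 gene separated the groups completely. Tm7sf2, a sterol reductase, ranged from 74.9 to 149 CPM with a median of 97.9 in the high group and from 13.8 to 69.4 CPM with a median of 47.1 in the low group (log2 1.13, SE 0.15, adjusted p = 8.48e-07). Mvd, the mevalonate decarboxylase, had medians of 17.8 and 4.93 CPM (log2 1.94), Pmvk, the preceding kinase, 34.6 and 15 CPM (log2 1.36), and Acat2, which starts the pathway, 79.4 and 42.8 CPM (log2 1.05). In each of these 3 genes, the groups overlapped while all 20 high strains lay above the low median. Idi1, an isomerase, was higher by 1.79 and Sqle, squalene epoxidase, by 1.09.

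**Figure D3:**
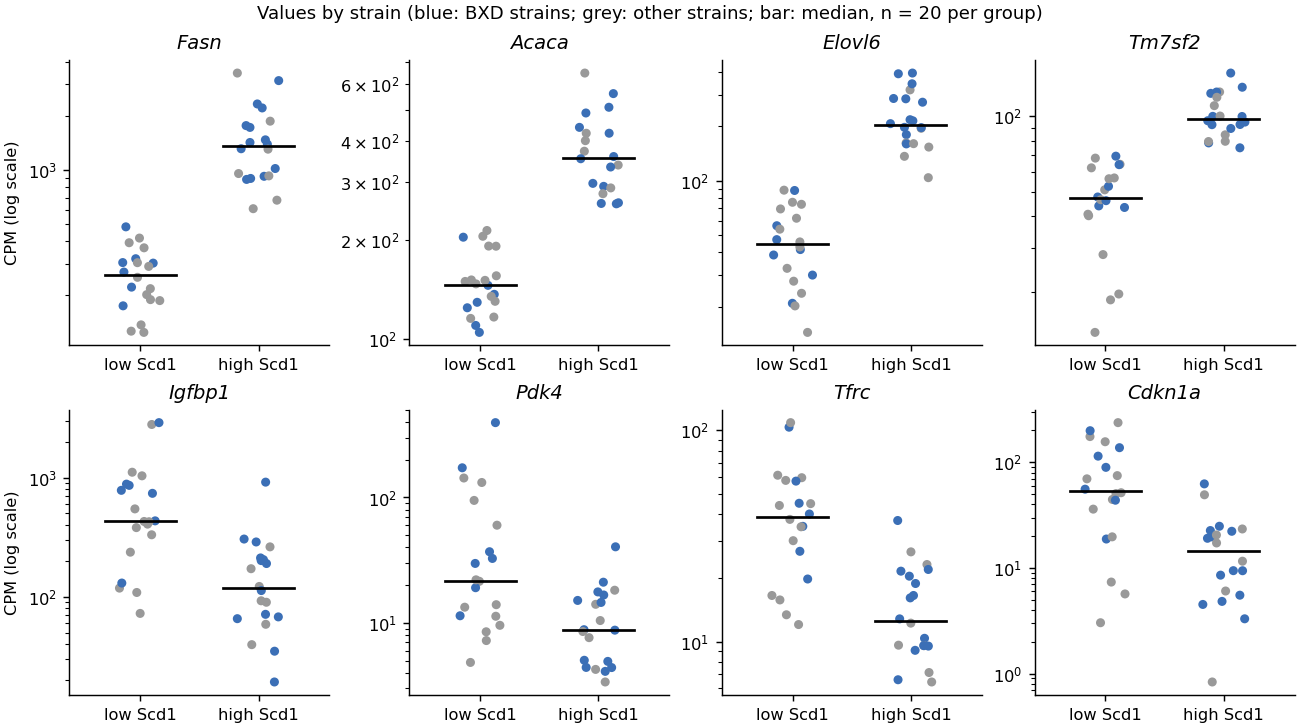
CPM (log axis) by strain in the low and high Scd1 groups for Fasn, Acaca, Elovl6, Tm7sf2, Igfbp1, Pdk4, Tfrc and Cdkn1a, with BXD strains in blue, other strains in grey and the median as a bar. The upper 4 genes separate both groups completely, while the lower 4 are lower in the high group with overlap.

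Chrna4, a nicotinic acetylcholine receptor subunit, had the smallest p outside the pathways. It ranged from 3.47 to 76 CPM with a median of 22.1 in the high group, and from 0 to 7.39 CPM with a median of 1.21 in the low group. The log2 difference was 3.94 (SE 0.38, adjusted p = 1.15e-09). In the high group 19 strains had over 5 CPM, against 1 of the low group.

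The middle strains gave a separate set of animals, none of which entered either group. In these 73 strains Scd1 spanned 1106 to 2983 TPM, and each gene was tested for a slope on log2(Scd1 TPM + 1), given as the log2 change per doubling of Scd1. Of 13951 genes, 468 (3.35%) were called, 232 (1.66%) with a rising and 236 (1.69%) with a falling slope. Limma on log2(TPM + 1) moved the rising share of the calls from 49.6% to 93.7%. Of the 3419 genes called between high and low strains, 351 were also called here, 349 of them in the same direction, which is 10.2% of the first list and 77% of the 453 genes of the second tested in both. The sign was the same for 3201 (93.6%) of the 3419.

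Lipogenesis and cholesterol genes were among those with a slope in the middle strains. Of the 30 lipogenesis genes 13 rose and 0 fell, and of the 25 cholesterol genes 22 rose and 0 fell. Per doubling of Scd1, Fasn rose by 1.11, Acss2 by 1.13, Elovl6 by 0.84 and Acaca by 0.40 on the log2 scale, with adjusted p of 0.000345, 0.0013, 0.000991 and 0.0243. Mvd rose by 1.25 (adjusted p = 0.00372). Srebf1 (0.38, adjusted p = 0.146), Mlxipl (0.10, adjusted p = 0.667) and Thrsp (0.34, adjusted p = 0.474) were not called. The slope of Acaca was not called when Scd1 was entered as CPM in place of TPM (0.35).

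The genes whose level followed Scd1 most closely across the middle strains were picked by the highest Pearson correlation of log2 CPM, as a description over 73 strains. Cyb5r3, the reductase of cytochrome b5 that passes electrons toward desaturases, came first (r = 0.620, Spearman's rho = 0.640). Next came Scd3 (0.602, rho = 0.605), Elovl6 (0.587, rho = 0.602), Tecr, the final reductase of fatty acid elongation (r = 0.586), and Acss2 (0.583, rho = 0.574). Slc25a1 had r = 0.582, Tm7sf2 0.561, Ebp, a sterol isomerase, 0.547, Olfr679, an olfactory receptor gene, 0.534 and Fasn 0.532. All these points share a library with the Scd1 value they are set against. Cyb5r3 also differed between the extreme groups, with medians of 454 and 260 CPM (log2 0.80, SE 0.09, adjusted p = 2.74e-08).

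Genes of the insulin and fasting response were called in both directions. Igfbp1, an insulin-repressed secreted binding protein, had a minimum of 19.2, a median of 117 and a maximum of 916 CPM in the high group, and 72.4, 430.8 and 2896 CPM in the low group. Its log2 difference was -2.06 (SE 0.43, adjusted p = 0.000724), and its slope in the middle strains was -2.04 (adjusted p = 0.0111). Pdk4, the kinase that shuts pyruvate dehydrogenase in fasting, had medians of 8.78 and 21.7 CPM (log2 -2.41, SE 0.47, adjusted p = 0.000368). Groups overlapped for both. Irs2, an insulin receptor substrate, differed by -0.71 and Ppargc1a, a coactivator of gluconeogenesis, by -0.80. Of 18 genes of glucose and insulin response 3 were called higher (against 11.1% of all genes) and 4 lower (against 14.8%), with a median of -0.12. In the middle strains Igfbp1 alone of the 18 was called. Igfbp1 and Irs2 are among the 4 lower, while Pdk4 and Ppargc1a stand in the list of fatty acid oxidation. The 4 lower became 2 in BXD strains and 0 in the others.

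Few genes of fatty acid oxidation were called. Of 31 PPAR alpha and oxidation genes 2 were called higher and 3 lower, with a median of 0.04, a share of calls (16.1%) under that of all genes. Fabp1, the liver fatty acid binding protein, was among those higher, with medians of 1617 and 702 CPM (log2 1.15, SE 0.22, adjusted p = 0.00035). Lipid droplet genes were mixed, with 3 of 19 called higher (against 11.1% of all genes) and 6 lower (against 14.8%). The 6 became 3 with limma on log2(TPM + 1), 3 in BXD strains and 0 in the others. Hilpda, a hypoxia-induced inhibitor of lipolysis, differed by -1.95, Plin4, a droplet coat protein, by -1.33 and Fabp4 by -1.41, while Mgll, a monoglyceride lipase, was higher by 0.71 and Cideb, a droplet protein of hepatocytes, by 0.50. Fabp4 is abundant in adipose tissue. The adipocyte genes Lep, Adipoq and Plin1 were at 0, at most 0.22 and at most 0.75 CPM in every strain of both groups.

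LXR targets moved in part. Pltp, the phospholipid transfer protein, was higher by 1.31 (SE 0.19, adjusted p = 5.38e-06) and rose by 0.89 per doubling in the middle strains (adjusted p = 0.0013). Lpcat3, a lysophospholipid acyltransferase, was higher by 0.38, and Lpl, the lipoprotein lipase, was lower by a log2 difference of -0.97. In the middle strains Pltp alone of the 12 LXR targets was called. Between the groups 4 of the 12 were called higher (against 11.1% of all genes) and 1 lower (against 14.8%). Among the 4 are Srebf1, also in the lipogenesis list, and Cyp7a1, also in the bile acid list. The sterol exporters Abcg5 (0.30, adjusted p = 0.14) and Abcg8 (0.23, adjusted p = 0.215) were not called.

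Iron genes were examined because every strain carried an iron load. Of 28 genes 3 were called higher and 7 lower (35.7% called, against 25.9% of all genes). The 7 lower became 2 with limma on log2(TPM + 1), 4 in BXD strains, 0 in the others and 11 with a slope over all ranked strains. Tfrc, the transferrin receptor through which cells take up iron, had a minimum of 6.43, a median of 12.5 and a maximum of 37.4 CPM in the high group, and 12, 39 and 109 CPM in the low group. The log2 difference was -1.50 (SE 0.25, adjusted p = 7.46e-05), with -1.53 in BXD strains and -1.61 in the others in a joint fit of both. No high strain lay above the low median. In the middle strains Tfrc fell by 1.21 per doubling of Scd1 (adjusted p = 0.0097), a call lost in 1 of 5 other settings. Tfrc was the only one of the 28 iron genes called there.

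Other iron genes differed less. Slc11a2, the divalent metal transporter, had medians of 20.5 and 32.5 CPM (log2 -0.87), and Fth1, ferritin heavy chain, 863 and 1013 CPM (log2 -0.40). Hmox1, heme oxygenase 1, differed by -0.83 and Trf, transferrin, by -0.55. Ireb2, an iron regulatory protein, was higher by 0.30 and Hjv, the hepcidin coreceptor, by 0.39. Hamp, which encodes hepcidin, had 854 ± 183 CPM (SD, n = 20) in the high group and 763 ± 182 CPM in the low group and was not called (log2 0.16, adjusted p = 0.27). Fth1 and Hjv were not called within BXD strains, at -0.27 and 0.02.

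Stress genes were lower in high Scd1 strains. Of 14 tested genes of the integrated stress response 0 were called higher and 9 lower, with a median of -0.86. Sesn2, sestrin 2, ranged from 6.01 to 16 CPM in the high group and from 10.3 to 43.5 CPM in the low group (log2 -0.76, SE 0.13, adjusted p = 0.000124). It fell by 0.57 per doubling in the middle strains (adjusted p = 0.0226), a call lost in 1 of 5 other settings. Of 15 stress response genes tested there, Sesn2 alone was called, where 1.69% of all genes had a falling slope. Psat1, of serine synthesis, differed by -1.56, Mthfd2, a mitochondrial folate enzyme, by -0.94 and Gdf15, a stress hormone, by -1.21. The transcription factor Atf3 differed by -0.94 and the pseudokinase Trib3 by -0.77. Cdkn1a, the cell cycle inhibitor p21, had medians of 14.4 and 53.5 CPM (log2 -2.20, SE 0.44, adjusted p = 0.000423). The count of 9 fell to 4 with family as a covariate (7.89% of all genes were lower there), 2 in BXD strains (2.77%) and 1 in the others (0.378%), and to 4 with limma on log2(TPM + 1). Of 16 NRF2 targets 1 was called higher and 6 lower, against 14.8% of all genes lower. With family as a covariate 1 was called lower, against 7.89%. Gsta1, a glutathione transferase with close paralogs, differed by -2.39.

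Acute phase values rested partly on single libraries. Lcn2, lipocalin 2, had medians of 44.8 and 75.2 CPM, with 3154 CPM in BXD48/RwwJ and 1630 CPM in NZB/BlNJ. Its log2 difference of -2.06 (adjusted p = 0.0115) became -1.13 and was no longer called without BXD48/RwwJ, BALB/cJ and NZB/BlNJ. A single strain decided Hp. This gene, haptoglobin, differed by -0.77 with all strains and by -0.49, not called, without BXD48/RwwJ. Over 18 acute phase genes 0 were called higher and 3 lower (16.7%, near the 14.8% of all genes).

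Of 14 bile acid genes 5 were called higher, against 11.1% of all genes, and 0 lower. In the middle strains 0 of the 14 were called in either direction, with a median slope of 0.14, where 3.35% of all genes were called. Abcb11, the bile salt export pump, had medians of 447 and 230 CPM (log2 0.89, SE 0.16, adjusted p = 0.000107), and all 20 high strains lay above the low median. Slc10a1, the bile salt uptake carrier, was higher by 0.61 and Slc27a5, a bile acid ligase, by 0.60. Cyp7a1, the rate-limiting enzyme of bile acid synthesis, differed by 0.97 (adjusted p = 0.0269), a call lost without BXD39/TyJ (0.85). With family as a covariate 3 of the 14 were called higher (7.39% of all genes were), in BXD strains 3 and in the others 1, while limma on log2(TPM + 1) called 8.

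**Figure D4:**
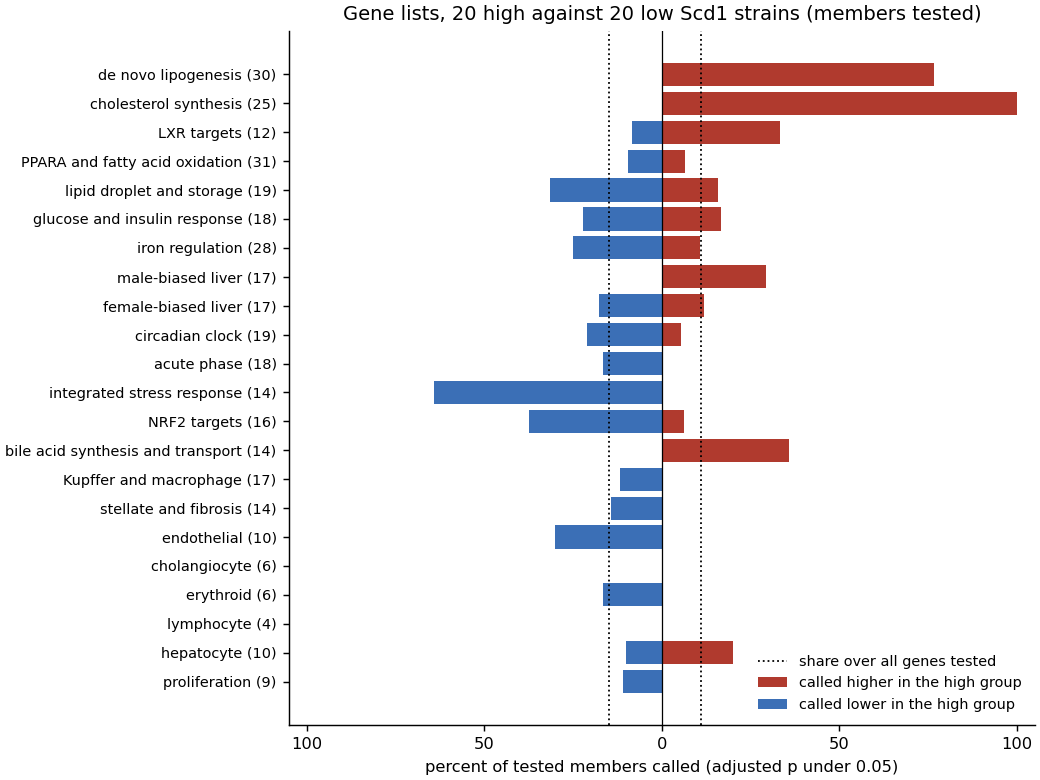
Percent of the tested members of each gene list called higher (right) or lower (left) in the high group, with the number tested in parentheses and the shares over all genes as dotted lines at 11.1% and 14.8%. Cholesterol synthesis reaches 25 of 25 higher, lipogenesis 23 of 30 higher and the integrated stress response 9 of 14 lower.

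The largest rises by fold were in major urinary protein genes, androgen- and growth-hormone-dependent secreted carriers of the liver. They made up 8 of the 10 genes with the largest positive log2 difference, from 3.18 for Mup13 over Mup14, Mup10, Mup18, Mup16, Mup9 and Mup19 to 5.52 for Mup7. Members have near-identical sequences, so single values are uncertain. Summed over 22 Mup genes the level had a minimum of 45.4, a median of 1351 and a maximum of 20116 CPM in the high group and 4.29, 81.1 and 4101 CPM in the low group, a wide overlap. In the middle strains the median was 1366 CPM, close to that of the high group. Leaving out CBA/J, which had 858 CPM of Mup7, changed the difference of Mup7 to 2.88.

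Genes that differ between the sexes, some Mup genes included, did not all follow. Of 17 male-biased genes 5 were called higher, against 11.1% of all genes, and 0 lower. Among the 5 were Elovl3, an elongase, at 2.42, Mup3 at 2.30, Mup20 at 2.72 and Mup21 at 2.99. Because Mup3, Mup20 and Mup21 belong to the Mup family, this count is not separate from the Mup result. On 2% iron against 50 ppm in C57BL/6J, 0 of the 17 were called higher and 15 lower, against 7.17% of all genes lower. The count between strains was 0 in strains other than BXD, 2 with at least 10 counts in every library and 10 with DESeq2. It was 11 without MRL/MpJ, which had 8.6 CPM of Mup7, the highest of the low group. Of 17 female-biased genes 2 were called higher and 3 lower (29.4% called, near the 25.9% of all genes). A1bg, alpha-1-B glycoprotein, of that list, had one of the largest rises (4.76, SE 0.74, adjusted p = 2.25e-05), with medians of 3.13 and 0.398 CPM. Its slope in the middle strains was -1.24 and not called (adjusted p = 0.389).

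Of the largest falls by fold, some rested on few strains. Ceacam2, a cell adhesion receptor, differed by -4.32 (adjusted p = 0.000247) although the medians were 0.728 CPM in the high group and 0.847 CPM in the low group. It exceeded 5 CPM in 5 low strains, MRL/MpJ, LG/J, NOD/ShiLtJ, BUB/BnJ and AKR/J, all outside the recombinant families, and in no high strain. Fitted on BXD strains alone the difference was 0.17. Afp, the fetal albumin-like protein, differed by -2.37 and by -0.02, not called, without BALB/cJ, which alone had 232 CPM. Other large falls were Slc4a1 (-2.82), Ffar4 (-2.58), Gsta1, Pdk4, Ndufa4l2 (-2.31), Car1 (-2.31) and Cdkn1a. Slc4a1 and Car1 are red cell genes. Of 6 tested genes of the erythroid list Slc4a1 alone was called (16.7%, under the 25.9% of all genes), with 1 positive and 5 negative differences. The erythroid marker sum ranged from 5.99 to 1819 CPM in high and 4.7 to 1867 CPM in low strains. Ndufa4l2, a gene induced by hypoxia, also fell in the middle strains, by 2.36 per doubling (adjusted p = 0.00661). That call was lost in 1 of 5 other settings, whose slopes ran from -2.36 to -1.04.

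The falls with the smallest p were modest in size and nearly separated the groups. Slc25a33, a mitochondrial pyrimidine nucleotide carrier induced by insulin-like growth factor, had 6.56 to 24.8 CPM with a median of 12 in the high group and 16.8 to 55.9 CPM with a median of 28.2 in the low group (log2 -1.24, SE 0.15, adjusted p = 4.77e-07). It fell by 0.64 per doubling in the middle strains (adjusted p = 0.0226). Kdm6b, a histone H3 demethylase, had 23.8 to 44 against 36.6 to 79 CPM (log2 -0.57), and R3hdm1 24 to 31.5 against 30.4 to 52.9 CPM (log2 -0.37). The splicing factors Srsf6 and Sfpq were lower, at -0.44 and -0.48. For Slc25a33, Kdm6b and R3hdm1 no high strain lay above the low median and no low strain lay below the high median.

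Few markers of other liver cells were called, where 14.8% of all genes were lower. Kupffer and macrophage genes had 0 of 17 called higher and 2 lower (11.8%), Marco and Cd9. Their sum had medians of 770 CPM in high and 763 CPM in low strains. It ranged from 367 to 1449 CPM in high and from 493.1 to 1275 CPM in low strains. Of 14 stellate and fibrosis genes 0 were called higher and 2 lower (14.3%), with a median log2 difference of 0.03. Of 10 endothelial genes 3 were called lower (30% called, against 25.9% of all genes), with Pecam1 at -0.39, and their sums ranged from 292 to 679 and from 429 to 750 CPM. Lyve1 and Stab2, the other 2, lost the call when any 1 of 12 and of 11 strains was left out. Marco lost it when any 1 of 11 was left out. Of 6 cholangiocyte genes none was called, with edgeR, and none of 4 lymphocyte genes. The hepatocyte marker sum had medians of 114721 and 112222 CPM in the high and the low group. In BALB/cJ 12 exocrine pancreas genes summed to 103 CPM, against at most 2.28 CPM in the high group. The proliferation genes summed to 265 CPM in NZB/BlNJ against 70.8 CPM at most in the high group. Without BXD48/RwwJ, BALB/cJ and NZB/BlNJ 2993 genes were called, among them 23 lipogenesis and 25 cholesterol genes higher and 8 stress response genes lower.

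Genes of the circadian clock were compared because time of collection is not in the labels. Of 19 genes 1 was called higher and 4 lower, a share of 26.3% against 25.9% of all genes. Dbp, an output gene of the clock with a strong daily rhythm, was higher by 0.90 (adjusted p = 0.0403), and Cry1 was lower at -0.93 (SE 0.24, adjusted p = 0.00411). The call of Dbp was lost when any 1 of 14 strains was left out, and without NZB/BlNJ 2 genes were called lower in place of 4. The part of collection time in the other results was not tested.

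The diet study shows Scd1 in C57BL/6J alone, with the strain held fixed. Scd1 had 5275, 9253 and 11232 CPM in the 3 chow mice, 5942, 21300 and 12948 CPM on 50 ppm iron, and 18968, 12029 and 27898 CPM on 500 ppm iron. On 2% iron it had 6079, 20594 and 24459 CPM, and with cellulose 1622, 4878 and 12604 CPM. Mice of one diet differed several-fold, and the groups overlapped. Between 2% and 50 ppm iron the log2 difference of Scd1 was 0.35 (SE 0.66, adjusted p = 0.776), in a fit that called 2127 of 13559 genes (15.7%): 1155 (8.52%) higher and 972 (7.17%) lower on 2% iron. Limma on log2(TPM + 1) called 1208 genes and moved the share called higher from 54.3% to 66.6%. The difference of Scd1 turned to -0.01 without the third mouse on 2% iron or without the first on 50 ppm, and was 0.85 without the second on 50 ppm.

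Few lipogenic genes were called in that contrast. Of the 30 lipogenesis genes 3 were called higher on 2% iron, against 8.52% of all genes: Acaca (1.30, adjusted p = 0.0435), Pgd (1.07, adjusted p = 0.0185) and Scd2 (0.84, adjusted p = 0.0245). Each of these calls was lost when any 1 of 4 of the 6 mice was left out. Fasn had 461, 1136 and 628.96 CPM on 50 ppm and 569, 1909 and 3132 CPM on 2% iron and was not called (log2 1.33, adjusted p = 0.0973). It passed without the first mouse on 2% iron, at 1.75. Aacs, the acetoacetyl-CoA synthetase, which was chosen after its values were seen, had 15.1, 31.4 and 28.3 CPM on 50 ppm and 120, 122 and 155 CPM on 2% iron (log2 2.40, SE 0.41, adjusted p = 0.00241). Of the 25 cholesterol genes 0 were called higher (against 8.52% of all genes) and 2 lower (8%, near the 7.17% of all genes). Tm7sf2 was one of these (-0.87, adjusted p = 0.0459), a call lost without any 1 of 5 of the 6 mice, and Igfbp1 was higher (1.47, adjusted p = 0.0348), a call lost without any 1 of 4. Of 12899 genes tested in both comparisons, 3384 were called between the strain groups, 2056 between the diets and 605 in both. Whether 605 is more than these numbers alone would give was not tested. Of the 605, 67 had the same direction, while 297 were higher in high Scd1 strains and lower on 2% iron and 241 the reverse.

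**Figure D5:**
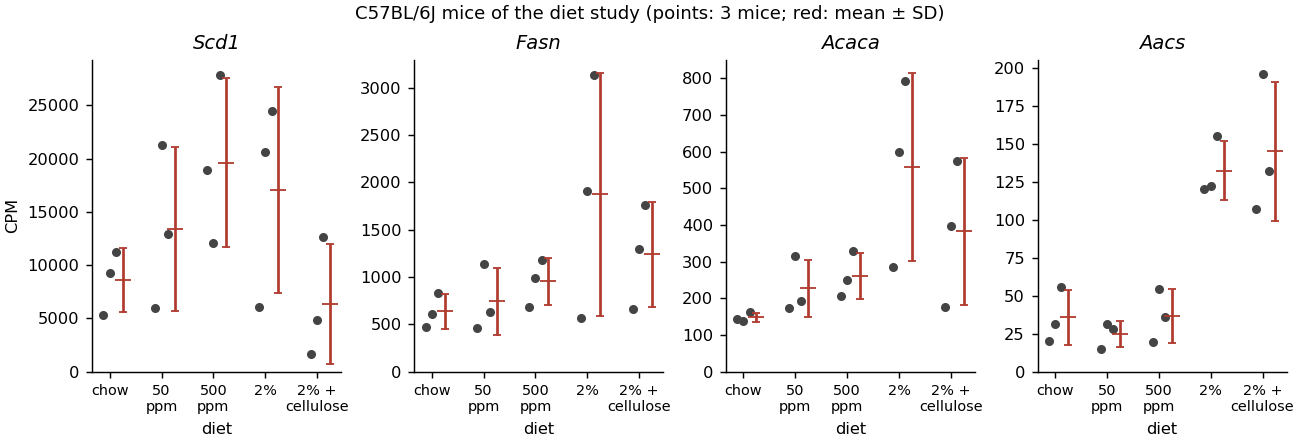
CPM of Scd1, Fasn, Acaca and Aacs in 15 C57BL/6J mice on 5 diets, with 3 points per diet and the mean ± SD in red. Scd1 spans 1622 to 27898 CPM with overlap between diets, while Aacs lies above 100 CPM in every mouse on 2% iron.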

How the data were processed

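RNA came from 20 mg of liver (large lobe) and was sequenced as stranded mRNA libraries, per the labels' protocols. The submitters' processing notes name kallisto 0.46 and the build mm10. The authors deposited expected counts per gene, which are estimates (27.4% of panel values were not whole), and TPM. Symbols and coordinates came from GENCODE M21 (35612 of 35711 panel identifiers and 34845 of 35274 diet identifiers matched). Counts were rounded and tested with edgeR 4.0.16 (R 4.3.3; TMM scaling, filterByExpr, quasi-likelihood, Benjamini-Hochberg), and simulated data were used to check each fit. DESeq2 1.42.0 and limma 3.58.1 were alternatives. Strains were ranked by deposited Scd1 TPM. A library labelled BXD65/RwwJ and a second 129X1/SvJ mouse were left out of the ranking. Diet groups were fitted together, with 2% against 50 ppm iron as the contrast.

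The members and gene lists were chosen with earlier results of these data known. The rule for named genes took the 10 largest rises and falls by fold of those called (mean CPM not under 5), the 5 smallest p in each direction, the lipogenesis genes, Scd1 to Scd4, up to 4 members of each other list by smallest p, and the genes most correlated with Scd1 in the middle strains. Other genes were named after their values were seen, and some genes that the rule names are not reported here. Library totals in the panel ran from 9407880 to 20572900 counts, and their number limits the precision of low genes. No batch is given in the labels.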

Additional observations from a re-analysis of the deposited data

How the results depend on the processing

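Of 3419 genes called between high and low Scd1 strains, the number became 2020 with family as a covariate, 926 in BXD strains, 162 in the other strains and 1612 with the 10 highest against the 10 lowest strains; the other settings gave 2507 to 4427, and leaving out 1 strain gave 2892 (without BXH2/TyJ) to 3846 (without BALB/cByJ). The smaller sets test fewer strains, and otherwise the cause was not tested. Of the 3419 genes, 1727 kept call and direction with limma on log2(TPM + 1) and 1715 with limma on log2(TPM + 0.1). The sign was the same for 3377 and 3374 of them. Leaving out 1 strain gave 22 to 24 lipogenesis genes, 25 to 25 cholesterol genes and 8 to 10 stress response genes. In strains other than BXD 12 lipogenesis and 7 cholesterol genes were called. The 9 stress response genes became 4 with at least 10 counts in every library, with limma on log2(TPM + 1), with limma on log2(TPM + 0.1), with family as a covariate and with 10 strains a group, 5 when ranking within family, 2 in BXD strains and 1 in the others. Over 110 named genes and 1839 pairs of gene and alternative, 1607 kept direction and call, 208 lost the call, 12 gained it and 12 changed sign. The changes of sign were G6pdx (-0.0415 and -0.0389 with limma on log2(TPM + 1) and log2(TPM + 0.1), -0.00865 with library total as a covariate, -0.0134 ranking by CPM, -0.0319 with 1 strain of each substrain set), Agpat2 (-0.0532 in BXD strains, -0.00539 with 1 strain of each substrain set), Scd2 (0.10 in BXD strains), Ceacam2 (0.17 in BXD strains) and Afp (0.0121 with limma on log2(TPM + 0.1), 0.29 in BXD strains, 0.0163 without BXD48/RwwJ, BALB/cJ and NZB/BlNJ). Leaving out 1 strain moved G6pdx between -0.0225 and 0.0732, Agpat2 between -0.00828 and 0.0636 and Afp between -2.44 and -0.02. In the middle strains no setting moved the number of calls, 468, by over 1.5 times, but the genes called changed more. Of the 468 genes, 176 kept call and direction with limma on log2(TPM + 1). The other settings kept from 288, with the slope on Scd1 CPM, to 445. In the diet contrast limma gave 1208 calls, and leaving out 1 mouse gave 1003 (without the first on 50 ppm) to 1640, with Scd1 between -0.0101 and 0.85 and Acss2 between -0.22 and 0.74. Leaving out the 3 low-group libraries and the slope on Scd1 CPM were chosen after seeing the data. No paired analysis was possible because each strain is 1 mouse and the numbers of the diet mice only name them.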
